A study of Mus musculus with 6 samples.

Results

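The claudin family and the other genes of the tight junction were examined in RNA from sorted ileal tuft cells, the chemosensory cells of the intestinal epithelium. The members were every symbol of the expression table that starts with Cldn, Tjp or Marveld and, for Cldn and Tjp, a digit, together with Ocln, Cgn, F11r, Jam2, Jam3, Cxadr, Esam, Pard3, Pard6b and Cdh1. This gave 41 of the 23420 genes in the table, of which 25 had a claudin symbol and 16 were other components. The 6 libraries form 1 group, and no treated, mutant or non-tuft group was analysed here. The labels call each a mouse replicate and give the genotype Gfi1b-eGFP, which is Gfi1b eGFP/+ in the methods, with the strain given as C57BL/6 in one label and as C57BL/6J in another. In these mice the locus of Gfi1b drives green fluorescent protein, so that any GFP-positive cell of the epithelium could enter the sort, and the cells were taken as GFP-positive, EpCam-positive, CD45-negative and negative for propidium iodide. The methods give 1 age range for all mice of the study, and no source used here ties an age or a number of mice to a library. The methods describe full-length SMART-Seq2 libraries, while the labels of every library add 10X Genomics and 3' polyA preparations to it.

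Tight junctions seal the space between neighbouring epithelial cells. Claudins are small membrane proteins that line up in strands around each cell, and the mix of claudins sets what passes between cells, since some close the space and others form pores for small ions and water. Occludin, tricellulin and MARVELD3 share the MARVEL fold and lie in the same strands, the zonula occludens proteins and cingulin tie them to actin below the membrane, and the junctional adhesion molecules, E-cadherin and the PAR complex act in building the contact and in dividing the apical from the basolateral surface. Tuft cells are scattered singly in the epithelium, so each has to form these contacts with cells of other types.

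The promoter-side sequences are shown for 5 claudins whose levels are compared below, and no comparison of levels uses the sequences. Cldn7 and Cldn3 were the most abundant claudins, Cldn4 is a chromosomal neighbour of Cldn3 with a far lower level, and Cldn15 and Cldn2 are the pore-forming pair. Each run is read 5′ to 3′ on the strand of the gene and ends at the base before the RefSeq transcript start in GRCm38.p6, except that of Cldn15, from which 25 bases next to the start were left out because they lie in an exon of another transcript. Capitals mark exact matches, on either strand, to a GC box, an E-box, the AP-1 motif or a TATA box, whose letters are spelled out after the sequences. The positions are chr11:69964529-69964778 (plus strand) for Cldn7, chr5:134985964-134986213 (plus) for Cldn3, chr5:134946935-134947184 (minus) for Cldn4, chr5:136967619-136967843 (plus) for Cldn15 and chrX:139800558-139800807 (plus) for Cldn2.
Cldn7: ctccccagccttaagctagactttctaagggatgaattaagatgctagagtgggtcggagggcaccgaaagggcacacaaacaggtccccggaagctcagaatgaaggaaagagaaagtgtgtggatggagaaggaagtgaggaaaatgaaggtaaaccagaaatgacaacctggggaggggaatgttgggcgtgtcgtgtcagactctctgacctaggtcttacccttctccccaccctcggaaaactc
Cldn3: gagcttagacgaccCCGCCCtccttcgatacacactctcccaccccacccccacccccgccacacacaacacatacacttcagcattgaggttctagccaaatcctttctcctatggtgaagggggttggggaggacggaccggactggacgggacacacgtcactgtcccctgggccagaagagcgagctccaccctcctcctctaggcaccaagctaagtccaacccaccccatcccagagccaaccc
Cldn4: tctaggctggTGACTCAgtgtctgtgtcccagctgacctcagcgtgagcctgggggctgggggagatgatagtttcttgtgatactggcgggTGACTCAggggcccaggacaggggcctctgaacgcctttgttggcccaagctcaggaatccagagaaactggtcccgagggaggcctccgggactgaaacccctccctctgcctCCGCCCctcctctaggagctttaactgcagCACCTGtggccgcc
Cldn15: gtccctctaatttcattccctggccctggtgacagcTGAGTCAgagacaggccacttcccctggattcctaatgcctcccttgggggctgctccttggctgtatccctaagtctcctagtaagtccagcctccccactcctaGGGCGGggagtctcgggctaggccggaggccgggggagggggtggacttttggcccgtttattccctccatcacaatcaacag
Cldn2: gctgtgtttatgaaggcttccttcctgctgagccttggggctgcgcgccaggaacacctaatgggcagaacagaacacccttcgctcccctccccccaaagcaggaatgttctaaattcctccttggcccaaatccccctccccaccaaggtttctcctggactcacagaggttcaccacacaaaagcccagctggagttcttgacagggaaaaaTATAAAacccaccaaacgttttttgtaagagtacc

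Cldn7 has no match in the stretch shown. A further RefSeq start of Cldn7 lies downstream, and its 250 bases, which are not shown, hold 2 E-boxes and a GC box. Cldn3 has 1 GC box, 236 bases before the start and read on the minus strand. Cldn4 has 2 AP-1 motifs, a GC box and an E-box, the last 14 bases before the start. Cldn15 has an AP-1 motif and a GC box, and Cldn2 has a TATA box that begins 35 bases before the start. In GENCODE the gene of Cldn15 begins upstream of the stretch shown, at chr5:136966616, so that stretch lies inside the annotated gene. Of 32851 RefSeq promoter entries of the same length, 32.7% hold the GC box, spelled GGGCGG. The E-box, searched as CACCTG, is in 17.2% of these entries. The AP-1 motif, searched as TGANTCA, is in 6.75% of them. The TATA box, with the letters TATAAA, is in 12.4% of all the entries. No 2 of these motifs overlapped in the stretches shown. Among the members, 28 have an entry, and of their 40 entries 21 hold the GC box, 10 the E-box, 3 the AP-1 motif and 4 the TATA box. ATGCAAAT, the octamer of POU-domain factors such as the tuft cell factor POU2F3, is in 1.60% of all entries and in 0 of the 40. A match is a string of letters and not a measured binding site.

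The values are TPM, shares of all transcripts, which correct for transcript length and scale each library to the same total, so genes can be compared within a library, if reads cover whole transcripts as in SMART-Seq2, while sequencing depth is unknown. With reads from 3' ends alone the correction for length would lower long transcripts against short ones. Which applies was not tested for any comparison of genes below. A 0 therefore says only that a gene is listed at 0. Between 13044 and 13308 genes were above 0 per library, and Spearman correlations across genes between libraries were 0.915 to 0.937. The ribosomal precursor Rn45s took 23.1% to 32.6% of TPM and the predicted gene Gm20594 split the libraries into replicates 1 to 3 (at most 21283 TPM) and 4 to 6 (at least 51804 TPM), a split seen in the data and named by no label. Tuft cell markers summed to 8229 to 13641 TPM (13 of 14 genes found). Marker lists of other cells summed to 7740 to 16184 TPM for enterocytes (Fabp1 the most abundant), 4089 to 26976 for Paneth cells (Defa24) and 1053 to 5118 for goblet cells (Zg16). The sums were 379 to 536 for enteroendocrine cells (Sct), 317 to 788 for stem cells (Olfm4) and 122 to 286 for lymphocytes (Ptprc, the gene of CD45, whose protein the sort selected against). Sct alone had 331 to 474 TPM, and the next highest mean of its list was 18.2 (Gcg). Ptprc had a mean of 112 TPM and Gzma of 68.3, with 13.9 for Gzmb, 6.95 for Cd3g, 4.38 for Cd3e and 2.83 for Cd8a. Within this list Ptprc was highest in replicates 1 and 2 (171 and 156 TPM), whereas Gzma and Gzmb were highest in replicates 5 and 6. The part of other cells in the levels of junction genes was not tested, and in bulk RNA a lower share of a cell type and less RNA per cell cannot be told apart.

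Most of the scaffold, MARVEL and adhesion genes were listed in the sorted cells, as was part of the claudin family. Of the 41 members, 23 were above 0 in every library, or 10 of the 25 claudins and 13 of the 16 other components. Of all genes, 47.2% were above 0 in every library. A mean of at least 10 TPM was reached by 18 members, 9 of them claudins, against 29.8% of all genes. These shares describe members chosen by name and were not tested. A further 8 members had a mean of 1 to under 10 TPM (21.5% of all genes), 4 had a lower mean above 0 (15.7% of all genes), and 11 were listed at 0 in all 6 libraries (32.9% of all genes).

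**Figure D1:**
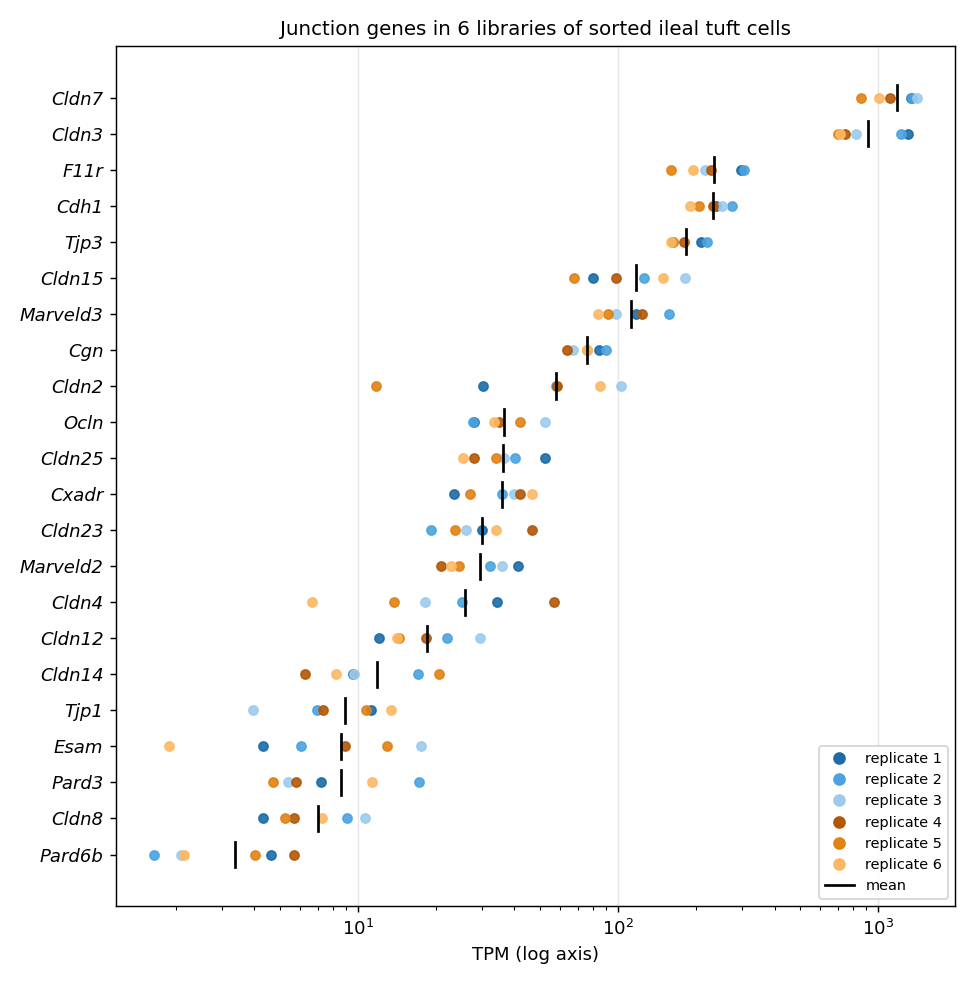
TPM (log axis) of 22 junction genes listed above 0 in every library, ordered by mean, with 1 point per library coloured by replicate and a black bar for the mean of the 6. Cldn7 and Cldn3 lie apart from the rest, with every library at 699 TPM or more, and Cldn2, Cldn4 and Esam spread most widely.

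Cldn7 was the most abundant member. It encodes a claudin that also lies along the lateral membrane, where it binds EPCAM. Its levels in replicates 1 to 6 were 1332, 1349, 1415, 1109, 860 and 1006.5 TPM, and the mean was 1179 ± 221 (SD, n = 6). Replicates 1 to 3 were all above replicates 4 to 6, and Cldn7 ranked 57th to 109th of all genes in its library. The gene has 4 exons on chromosome 11 (chr11:69964779-69967885, plus strand, GRCm38, GENCODE M21).

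Cldn3, a claudin that tightens the junction, was close behind. Its levels were 1297, 1224, 822, 749, 699 and 716 TPM in replicates 1 to 6 (mean 917.9 ± 270, n = 6). Replicates 1 and 2 stood well above the other libraries, which lay near one another. Cldn3 is a single-exon gene (chr5:134986214-134987472, plus strand), and 40 of its bases are shared with an antisense transcript, Wbscr25, so reads there could not be assigned without strand. On the log2(TPM + 1) scale Cldn7 exceeded Cldn3 by 0.39 ± 0.28 (SD, n = 6) and in 6 of 6 libraries. By an exact two-sided permutation test that flips signs within libraries, p was 0.03125, the lowest value 6 libraries can reach, and 0.0357 after adjustment over the 8 gene pairs compared. Every pair with all 6 differences on one side gets this same p, whatever the size of the difference. The adjusted value is under 0.05 only because most of the pairs share it, and the pairs were chosen with earlier results of these data known. The ratio was small, from 1.03 in replicate 1 to 1.72 in replicate 3, and the ranges of the genes over libraries overlapped. The exact Mann-Whitney test, which does not pair values within a library, gave an adjusted p of 0.0742.

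The claudins together summed to 2919, 2894, 2654, 2178, 1750.5 and 2054 TPM in replicates 1 to 6, and the mean sum was 2408 ± 483 (n = 6). The sum was higher in replicates 1 to 3, in which Rn45s took a smaller share (23.1% to 25.1%, against 26.7% to 32.6% in replicates 4 to 6). After median-of-ratios rescaling the order of these sets remained, with 2796, 2586 and 2478 against 2263, 1947 and 2224. Rescaled without Rn45s the sums were 3900, 3846 and 3450 against 2970, 2596 and 3029, in the same order. Whether this order reflects the cells or the libraries was not tested. Shares within a library do not depend on such scaling. Cldn7 made up 49.1% ± 2.81 of the claudin TPM (SD, n = 6) and Cldn3 37.8% ± 5.22, so that they supplied 83.9% to 90.1% of it in every library. The share of Cldn7 kept within 45.6% to 53.3%, while that of Cldn3 ran from 31.0% in replicate 3 to 44.4% in replicate 1.

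**Figure D2:**
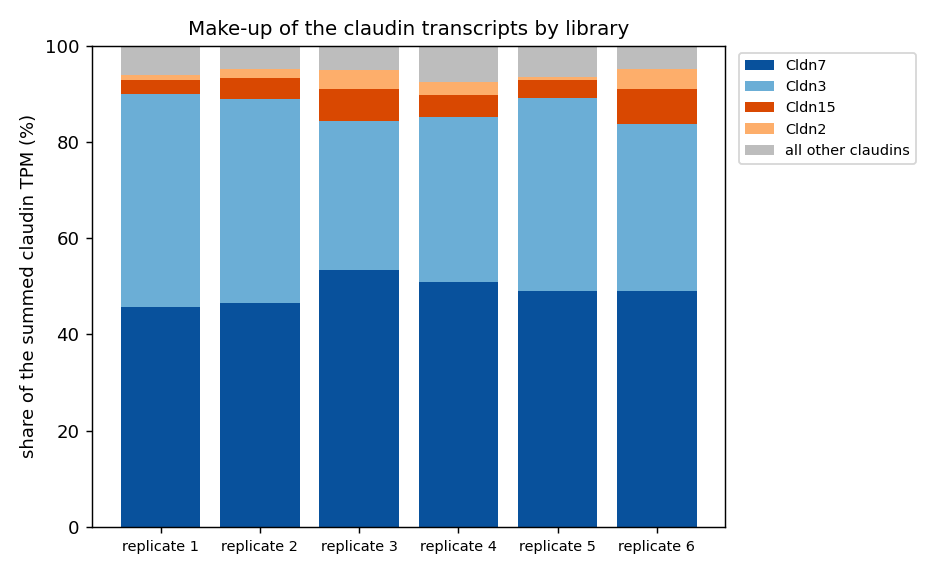
Share of the summed claudin TPM (%) in each of the 6 libraries, stacked by claudin, with all claudins other than Cldn7, Cldn3, Cldn15 and Cldn2 in grey. Cldn7 and Cldn3 fill 83.9% to 90.1% of every bar, and Cldn15 with Cldn2 fill 3.79% (replicate 1) to 11.4% (replicate 6).

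Cldn4, often grouped with Cldn3 as a barrier-forming claudin and as a receptor of Clostridium enterotoxin, was far less abundant. It had 34.3, 25.3, 18.1, 56.9, 13.8 and 6.67 TPM in replicates 1 to 6 (mean 25.8 ± 17.9, n = 6). Replicate 4 was highest and replicate 6 lowest, and the coefficient of variation of 69.4% was the largest among the 18 members with a mean of at least 10 TPM, whose median was 26.8% (31.0% over all genes at that level). Both genes have a single exon, and Cldn4 lies 39.3 kb from Cldn3 on the opposite strand (chr5:134945119-134946934). Within libraries Cldn3 exceeded Cldn4 by 5.33 ± 0.92 on the log2(TPM + 1) scale and in 6 of 6 libraries (exact sign-flip permutation p = 0.03125, adjusted p = 0.0357). In TPM it was 13.2 times Cldn4 in replicate 4 and 107 times in replicate 6. Annotated transcripts are 1259 nucleotides for Cldn3 and 1816 for Cldn4, and the part of length was not tested.

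The pore-forming claudins Cldn15 and Cldn2 came next. Both let small cations such as sodium pass between cells; in mice Cldn2 is known from crypts and the young intestine, and Cldn15 from the adult small intestine, where the sodium they let through serves nutrient uptake. Cldn15 (chr5:136966616-136975858, plus strand) had 80.3, 125, 182, 98.3, 67.7 and 149 TPM in replicates 1 to 6 (mean 117.0 ± 43.3, n = 6). Cldn2 (chrX:139800828-139811386, plus strand) had 30.3, 57.8, 103, 58.4, 11.8 and 85.0 TPM (mean 57.7 ± 33.6, n = 6). Replicates 3 and 6 were the highest and replicate 5 the lowest for both, and together they made up 7.32% ± 3.14 of the claudin TPM. Cldn15 exceeded Cldn2 in 6 of 6 libraries, by 1.21 ± 0.64 on the log2(TPM + 1) scale (exact sign-flip permutation p = 0.03125, adjusted p = 0.0357). The ratio lay between 1.68 and 5.76 with a median of 1.97, and was highest in replicate 5. At their longest, annotated transcripts are 1902 nucleotides for Cldn15 and 3044 for Cldn2, and the part of length was not tested. Unpaired, the exact Mann-Whitney test gave p = 0.0411 and an adjusted p of 0.0548.

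Across the 6 libraries Cldn2 and Cldn15 had the highest correlation, a relation chosen after the values had been seen, out of 153 pairs among the 18 members with a mean of at least 10 TPM. On the log2(TPM + 1) scale Pearson r was 0.93 (exact permutation p = 0.00556) and Spearman rho 0.94 (exact p = 0.0167). Adjusted over the 153 pairs these were 0.383 and 0.638, so the relation did not pass the correction. Leaving out replicates 3 and 5, whose Cldn15 was farthest from its median, r was 0.92, and centred within replicates 1 to 3 and 4 to 6 it was 0.92 (exact permutation p = 0.0556 over 36 pairings). Of the 153 pairs, 13 had an unadjusted p of at most 0.05 and 0 an adjusted one below it.

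**Figure D3:**
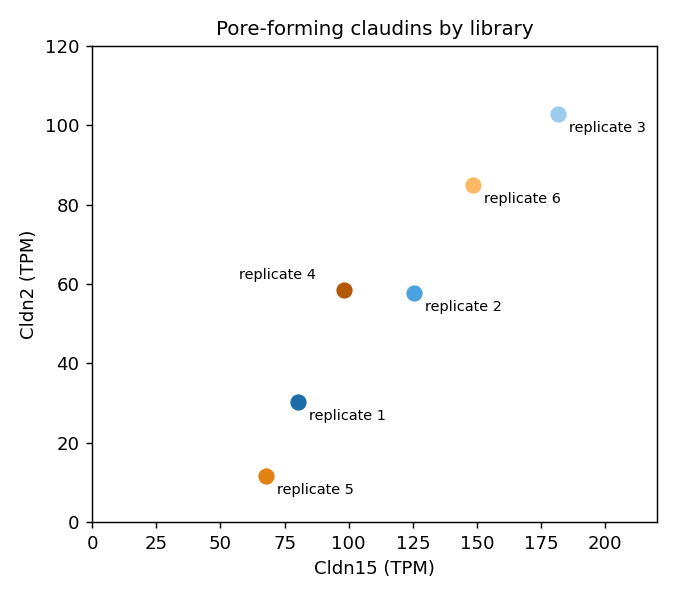
Cldn2 against Cldn15, both in TPM, with 1 labelled point for each of the 6 libraries. Replicate 5 is lowest for both (11.8 and 67.7 TPM) and replicate 3 highest (103 and 182 TPM).

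Whether claudins moved with marker lists of intestinal cell types was asked of 3 relations on the log2(TPM + 1) scale, with the median of each marker list. Cldn2 and the Paneth cell list had r = -0.52 (exact permutation p = 0.286, adjusted p = 0.286; rho = -0.37, exact p = 0.497, adjusted p = 0.497; n = 6). Cldn15 and the enterocyte list had r = -0.69 (exact permutation p = 0.124, adjusted p = 0.286; rho = -0.71, exact p = 0.136, adjusted p = 0.408). Cldn7 and the tuft cell list had r = 0.61 (exact permutation p = 0.210, adjusted p = 0.286; rho = 0.37, exact p = 0.497, adjusted p = 0.497). After centring within replicates 1 to 3 and 4 to 6, r was -0.52, -0.67 and 0.05 for these relations, and without the 2 libraries farthest from the median of each list it was -0.61, -0.65 and 0.34. None of the 3 passed the test.

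The other claudins with a mean of at least 10 TPM had means from 11.9 to 36.1 TPM. Cldn23, a single-exon claudin of the intestinal epithelium, had 30.1, 19.2, 26.0, 46.8, 23.6 and 34.0 TPM in replicates 1 to 6 (mean 29.9 ± 9.71). Cldn12, which lacks the tail motif by which most claudins bind scaffold proteins, had 12.1, 22.0, 29.5, 18.3, 14.4 and 14.2 TPM (mean 18.4 ± 6.50). Cldn14, a cation barrier known from the inner ear and kidney, had 9.57, 17.1, 9.70, 6.27, 20.5 and 8.24 TPM (mean 11.9 ± 5.59). No library was highest or lowest for all of them. The symbol Cldn25 had 52.3, 40.3, 36.6, 28.0, 34.0 and 25.4 TPM (mean 36.1 ± 9.64), but it is not a current symbol. In RefSeq it is an older name of both Cldn25-ps and Cldnd1, the table has no row named Cldnd1, and which gene was counted cannot be told apart. In the order Cldn7, Cldn3, Cldn15, Cldn2, Cldn25, Cldn23, Cldn4, Cldn12, Cldn14 and Cldn8, neighbours overlapped in range everywhere but between Cldn3 and Cldn15.

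Cldn8, a barrier claudin of the colon and distal nephron, had a mean of 7.05 ± 2.46 TPM (4.30 to 10.7). Cldn20 was above 0 in 4 of 6 libraries, with a mean of 1.16 ± 1.48 (0 to 3.64), which was 0.662 without replicate 2. Cldn13, which mice have and humans lack, was at 25.0 TPM in replicate 1 and at 0 in the other 5 libraries (mean 4.16 ± 10.2). Cldn10, a claudin with cation and anion pore forms, was at 10.6 TPM in replicate 1 and also at 0 in the rest (mean 1.77 ± 4.34). Both means therefore rest on 1 library, and without it both are 0. They were the 2 of 26 members with a mean of at least 1 TPM in which 1 library stood apart by the ratio of its gap to the range, against 9.04% of all genes at that level. Cldn18, a claudin of stomach and lung, reached 1.88 TPM at most, and Cldn9 reached 0.42 TPM.

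The 10 claudin symbols listed at 0 in all 6 libraries were Cldn1, Cldn5, Cldn6, Cldn11, Cldn16, Cldn17, Cldn19, Cldn22, Cldn24 and Cldn26. Cldn1 is the claudin of the epidermal barrier, Cldn5 that of endothelium, Cldn11 that of myelin and Sertoli cells, and Cldn16 and Cldn19 act in renal magnesium uptake. Cldn26 is an older name of Tmem114. Of 6 endothelial markers, Cdh5, Kdr and Emcn were at 0 in every library too, Pecam1 and Tie1 were above 0 in replicate 6 alone (0.28 and 0.06 TPM), and Tek was above 0 in every library (4.76 to 22.1 TPM). Of all genes, 7713 were at 0 throughout.

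Among the scaffold proteins, the zonula occludens gene Tjp3 was far above Tjp1. These proteins bind claudin tails and carry them to the cytoskeleton, and Tjp1 encodes ZO-1, a member known for its part in strand assembly. Tjp1 had 11.2, 6.96, 3.95, 7.36, 10.7 and 13.4 TPM in replicates 1 to 6 (mean 8.94 ± 3.46). Tjp3 (ZO-3) had 208, 219.7, 162, 179, 162 and 159 TPM (mean 181.8 ± 26.0). The lowest library of Tjp3 lay above the highest of Tjp1. Tjp1 was lower than Tjp3 in 6 of 6 libraries, with a difference of -4.27 ± 0.60 on the log2(TPM + 1) scale (exact sign-flip permutation p = 0.03125, adjusted p = 0.0357). The longest annotated transcripts are 7049 nucleotides for Tjp1 and 3024 for Tjp3, and the part of uneven coverage along a long transcript in this difference was not tested.

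Cgn encodes cingulin, a scaffold that links ZO-1 to myosin and to regulators of RhoA. It had 84.4, 89.7, 66.9, 63.8, 76.3 and 76.3 TPM in replicates 1 to 6 (mean 76.2 ± 9.87). Its spread was the smallest among the members with a mean of at least 10 TPM (12.9%), and it was 5.68 to 16.9 times Tjp1 within a library. Its longest annotated transcript is 5016 nucleotides, against 7049 for Tjp1, and the part of transcript length in this ratio was not tested.

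**Figure D4:**
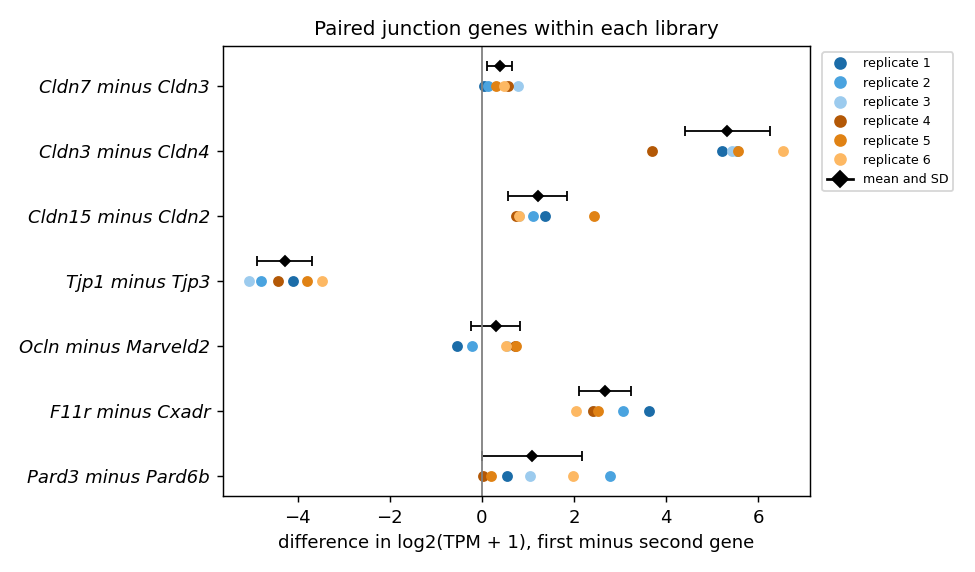
Difference in log2(TPM + 1) between the genes of each of 7 pairs, first minus second, with 1 coloured point per library and a black diamond with a bar for the mean and SD over 6 libraries. All points lie on one side of 0 in 6 pairs, and those of Ocln minus Marveld2 fall on both sides.

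Of the MARVEL proteins, Marveld3 was the most abundant. Marveld3 had 118, 157, 98.2, 124, 91.8 and 83.9 TPM in replicates 1 to 6 (mean 112.1 ± 26.8). Ocln, the gene of occludin, had 27.9, 27.7, 52.6, 34.9, 41.8 and 33.5 TPM (mean 36.4 ± 9.50). Marveld2, which encodes tricellulin, a protein of the corners where 3 cells meet, had 41.1, 32.1, 35.9, 20.8, 24.5 and 22.9 TPM (mean 29.6 ± 8.08). Marveld3 was above both in all 6 libraries, at 1.87 to 5.66 times Ocln and 2.74 to 5.94 times Marveld2, ratios formed after the values were seen. It also has the shortest of their longest transcripts (2447 nucleotides, against 4052 for Ocln and 3111 for Marveld2). The part of length in these ratios was not tested. Ocln and Marveld2, which lie 43.2 kb apart on chromosome 13, were not separated. Ocln was higher in 4 of 6 libraries and lower in replicates 1 and 2, with a difference of 0.30 ± 0.54 (log2 scale; exact sign-flip permutation p = 0.3125, adjusted p = 0.3125). Marveld1 was above 0 in replicate 4 alone, at 0.32 TPM.

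The immunoglobulin-like adhesion molecules were led by F11r, the gene of JAM-A. F11r had 298, 305, 216, 229, 159 and 194 TPM in replicates 1 to 6 (mean 233.4 ± 57.7). Cxadr, the receptor of coxsackievirus and adenovirus and an adhesion protein of the same family, had 23.3, 35.8, 39.7, 42.1, 27.0 and 46.7 TPM (mean 35.8 ± 8.99). F11r was highest in replicates 1 and 2, in which Cxadr was not. Within libraries F11r exceeded Cxadr by 2.67 ± 0.57 on the log2(TPM + 1) scale and in 6 of 6 libraries (exact sign-flip permutation p = 0.03125, adjusted p = 0.0357), at 4.16 to 12.8 times its TPM. Their longest annotated transcripts are 2518 nucleotides for F11r and 5742 for Cxadr, and the part of length in this difference was not tested. Esam, named for endothelial cells and also found on platelets and blood stem cells, had a mean of 8.60 ± 5.79 TPM (1.88 in replicate 6 to 17.4 in replicate 3). Of 6 endothelial markers, 3 were at 0 in all libraries, and the list summed to 5.10 to 22.1 TPM, nearly all of it from Tek. In replicate 3, where Esam was highest, the list summed to 7.57 TPM, and the source of Esam was not tested. Jam2 was listed at 0 in every library and Jam3 reached 0.11 TPM at most, in replicate 5.

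Cdh1 encodes E-cadherin, the adhesion protein of the adherens junction just below the tight junction. It had 238, 274, 251, 233, 205 and 189.6 TPM in replicates 1 to 6 (mean 231.8 ± 30.6). The level was close to that of F11r, which it exceeded in 3 of 6 libraries. Pard3 and Pard6b, polarity genes of the PAR complex, which marks the apical side, were low. Of 10 further polarity genes in the wider list below, 5 had a mean of at least 10 TPM, such as Prkcz at 28.5, while Prkci had 9.40. Pard3 had 7.23, 17.2, 5.39, 5.76, 4.73 and 11.3 TPM (mean 8.60 ± 4.81). Pard6b had 4.65, 1.65, 2.09, 5.66, 4.02 and 2.14 TPM (mean 3.37 ± 1.64). Pard3 exceeded Pard6b in 6 of 6 libraries, by 1.09 ± 1.08 on the log2(TPM + 1) scale (exact sign-flip permutation p = 0.03125, adjusted p = 0.0357). The size of that difference varied widely, from 1.02 times in replicate 4 to 10.4 times in replicate 2. Here the higher gene has the longer annotated transcript, at 5815 nucleotides against 3399.

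A wider list of 55 junction genes gave the setting of these members. Of these, 53 were in the table, 45 had a mean of at least 1 TPM, 33 of at least 10 and 8 of at least 100, and 3 were at 0 in all libraries. Of all genes, 51.4% had a mean of at least 1 TPM, 29.8% of at least 10 and 4.50% of at least 100, and 32.9% were at 0 throughout. The 8 most abundant belong to adhesion, to the tricellular junction and to the adherens junction. Epcam, the partner of Cldn7, had 1556 ± 390 TPM (SD, n = 6), but its protein was part of the sort gate, so this level is no finding. Cdh17, the liver-intestine cadherin, had 333.2 ± 56.6 TPM. The tricellular receptors Lsr and Ildr1, which bring tricellulin to the corners, had 273.4 ± 70.4 and 150.9 ± 45.3 TPM, while Ildr2 of the same group reached 0.03 TPM at most. Of the proteins that connect cadherins to actin, Ctnna1 had 162.6 ± 33.7, Jup 116.1 ± 22.1 and Ctnnb1 104.9 ± 19.4 TPM. Nectin2, listed under its older name Pvrl2, had 101.9 ± 22.0 TPM. All 5 desmosome genes of the list had a mean of at least 10 TPM, as did 9 of 10 adherens junction genes, 5 of 10 polarity genes, 4 of 5 kinases that act on the junction and 6 of 15 scaffold genes.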

How the data were processed

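RNA of 6 libraries was measured by a SMART-Seq2 protocol in the methods, while the labels also name 3' polyA and 10X Genomics preparations. The authors aligned reads with Bowtie to the mm10 transcriptome and deposited TPM from RSEM, which divides reads that fit several genes by estimated shares. TopHat also stands in the submitters' processing notes, without a role there, and the methods name DESeq2 for differential expression, which was not analysed here. The strand setting is not given in the sources used here. No depth can be recovered from TPM, so count models, counting intervals and detection limits were not used.

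Genes were compared within libraries as differences in log2(TPM + 1), by an exact permutation test that flips the sign of each library's difference (two-sided, 64 assignments), with Benjamini-Hochberg adjustment over 8 pairs. Relations across libraries used exact permutation over 720 pairings. The p-values take these libraries as the units. The sign-flip p asks whether the genes of a pair differ on average within libraries, and the permutation p whether values go together across libraries. Neither measures the size of the spread. The members, the pairs and the lists were chosen with earlier results of these data known. Members with a mean of at least 10 TPM or in a pair are given in every library, those from 1 to under 10 by mean and range, lower ones by their highest value, and of the wider list the 8 most abundant are named. Counts cover all 41 members and adjustment all 8 pairs, although 1 member with its pair, and the leading gene of 1 marker list, are not reported here. A library was called apart where Dixon's ratio of its gap to the range passed the 95% critical value.

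Alternatives were pseudocounts of 0.1 and 0.01, values under 0.1 TPM set to 0, both rescalings, the Mann-Whitney test, other detection thresholds and each library left out. Positions come from GENCODE M21 on GRCm38, where 39 of 41 symbols were found, and promoter sequences from RefSeq. The scripts were tested on simulated data. Scripts ran in Python 3.11.15 with pandas 2.3.3, numpy 2.4.6, matplotlib 3.10.9 and scipy 1.17.1.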

Additional observations from a re-analysis of the deposited data

Results flagged for a closer look

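In 3 of 36 measures screened, 1 library lay apart from the other 5. About 1 in 20 groups of normally distributed values passes the limit, or about 1.8 of the 36. TPM values need not be so distributed, so the 1.8 is no measure of excess here. Of the 26 members with a mean of at least 1 TPM, 2 did so (7.69%), against 9.04% of the 12032 genes of the table at that level. Both were in replicate 1, namely Cldn13, at 25.0 TPM against 0 elsewhere, and Cldn10, at 10.6 TPM against 0 elsewhere. The ratio of the gap to the range was 1 for each. The summed stromal list also stood apart with a ratio of 1, at 62.0 TPM in replicate 5 and 0 elsewhere.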

How the results depend on the processing

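All 8 pair differences kept their direction under every alternative. By the exact Mann-Whitney test without pairing, Cldn7 against Cldn3 (difference 0.39, adjusted p = 0.0742) and Cldn15 against Cldn2 (difference 1.21, adjusted p = 0.0548) no longer passed 0.05, as that test ignores which library a value came from. Rescaling without Rn45s raised the summed claudin TPM to 3298 and moved 17 of 26 member means by over 1 SD, since it raises every value. Neither a pseudocount nor a rescaling can turn the order of genes within 1 library, so their keeping it shows nothing about stability. With each library left out in turn, differences ran from 0.31 to 0.46 (Cldn7, Cldn3), 5.09 to 5.66 (Cldn3, Cldn4), 0.97 to 1.31 (Cldn15, Cldn2), -4.43 to -4.12 (Tjp1, Tjp3), 0.21 to 0.47 (Ocln, Marveld2), 2.49 to 2.80 (F11r, Cxadr) and 0.76 to 1.31 (Pard3, Pard6b), and r from -0.87 to -0.34 (Cldn2, Paneth list), -0.81 to -0.41 (Cldn15, enterocyte list), 0.44 to 0.96 (Cldn7, tuft list) and 0.92 to 0.97 (Cldn2, Cldn15). With 5 libraries the sign-flip p cannot go below 0.0625, and no call is drawn from them. The share of Cldn7 ran from 48.3% to 49.8% and the claudin sum from 2306 to 2540 TPM, and both member counts stayed at 23 and 18. The 23 was also the count at thresholds of 0.1 and 1 TPM, while the 18 was 17 by the median of the libraries and 21 without Rn45s. Leaving out Cldn25 and Cldn26 and all alternatives for Cldn2 with Cldn15 were chosen after seeing the data. No paired analysis was possible because the 6 libraries form 1 group, with no groups of libraries to pair; the pairing named above is of genes within a library.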
